A study of Homo sapiens with 5 samples.

Results

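Neuropeptide and neuroendocrine genes were followed in irradiated LNCaP cells, an androgen-sensitive human prostate cancer line. The set names 9 genes, and 8 of them carried a named probe set among the 14812 genes measured: NTS, GRP, GCG, DDC, CHGA, CHGB, SCG2 and SYP. ENO2, which encodes the neuronal enolase, was not analysed here. The set was drawn up with earlier results of the contrast between shRB and shControl in view, so the differences below describe these arrays and are not tests of the set. In the control group, shControl, a retrovirus delivered a scrambled short hairpin RNA (2 arrays). In the other group, shRB, the retroviral hairpin was directed against RB1 (3 arrays). Cells of both groups were selected with puromycin, kept in fetal bovine serum, exposed to 10 Gy of ionizing radiation and harvested after 24 h, so no unirradiated cells enter the comparison. The labels do not mention clones, nor whether replicates were grown separately, so any p-value measures the spread between these arrays alone.

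Neuroendocrine cells of the prostate store peptides and amines in dense-core granules and release them to act on neighbouring cells. Prohormones are packed with acidic granin proteins, cut by prohormone convertases and often amidated, whereas amines are made in the cytosol by decarboxylation. Prostate cancers that lose luminal features can acquire this secretory programme, and loss of RB1 is frequent in such tumours. LNCaP cells are known to take on neuroendocrine features under androgen withdrawal or raised cyclic AMP.

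The values are deposited array intensities on a linear scale. None lay below 16, so an intensity near 16 (a log2 value near 4) is close to the floor of the table and may hold no signal above background. The median intensity of an array lay between 26.65 and 28.06. RB1 had log2 intensities of 5.81 and 5.70 in shControl and 5.16, 5.28 and 5.20 in shRB. It was thus lower in shRB without overlap, as were 15.4% of all genes. The difference was -0.54 (SE 0.14, adjusted p = 0.097, limma), or 1.46-fold lower as deposited, so RB1 did not pass the threshold of 0.05 over all genes. With 16 taken off the linear values, the ratio of the shRB mean to the shControl mean was 0.55. Luminal markers were bright: KLK3, which encodes prostate-specific antigen, had means of 10.13 and 10.08, and 6 of the 8 measured luminal markers had mean log2 values above 8. Their summed intensity was 4029 to 4217 in shControl and 3861 to 3937 in shRB. Of the 8, 6 had negative differences and 4 were lower without overlap, among them KLK4 (-0.35, adjusted p = 0.24, limma). The 2 positive differences were those of KRT8 (0.23) and FOLH1 (0.13). In the fit over all genes 0 of the 8 passed, with 1 at an unadjusted p under 0.05. No measured marker of blood (2 genes), endothelium (2), fibroblasts (2) or glia (3) had a mean above 8. The summed intensity of the blood markers was 38.9 to 42.0 in shControl and 47.8 to 52.8 in shRB, with both genes near the floor. That of the fibroblast markers was 41.7 to 42.7 and 37.9 to 42.3, that of the endothelial markers 89.9 to 107 and 58.6 to 78.0, and that of the glial markers 101 to 181 and 99.8 to 117. Their part in the results was not tested.

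The sequences just upstream of the annotated starts show what the genes with higher signal in shRB do and do not share, beside CHGA as a granin. They come from RefSeq, build GRCh38.p14, in which 6 of the 8 genes were matched. DDC has 2 annotated starts, and CHGB and SCG2 are named only. The last 100 bases before each start are given 5' to 3' on the strand of the gene, with capitals marking a TATA box (TATANA) or a cyclic AMP response element (TGACGTCA, or its core TGACG) on either strand.
NTS promoter, chr12:85874195-85874294, plus strand: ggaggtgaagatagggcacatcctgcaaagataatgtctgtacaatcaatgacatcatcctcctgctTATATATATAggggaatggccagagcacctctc
GRP promoter, chr18:59220058-59220157, plus strand: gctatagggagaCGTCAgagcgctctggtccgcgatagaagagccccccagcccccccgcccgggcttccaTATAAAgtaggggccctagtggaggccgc
GCG promoter, chr2:162152248-162152347, minus strand: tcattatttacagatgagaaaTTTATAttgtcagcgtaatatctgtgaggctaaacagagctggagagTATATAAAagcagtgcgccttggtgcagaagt
DDC promoter, chr7:50565406-50565505, minus strand: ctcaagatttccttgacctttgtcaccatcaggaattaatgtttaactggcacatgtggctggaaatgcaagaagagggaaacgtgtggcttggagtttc
DDC promoter, chr7:50561072-50561171, minus strand: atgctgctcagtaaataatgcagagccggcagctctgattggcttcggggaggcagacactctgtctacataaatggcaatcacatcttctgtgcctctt
CHGA promoter, chr14:92923050-92923149, plus strand: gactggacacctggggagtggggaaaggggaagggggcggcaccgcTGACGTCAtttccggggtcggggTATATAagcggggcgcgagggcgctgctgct

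The 3 peptide genes and CHGA carried a TATA match close to the start. In GRP the match TATAAA ended 24 bases upstream of the start, and in CHGA the match TATATA ended 26 bases upstream. NTS and GCG had overlapping matches that ended 24 and 25 bases upstream. Neither the DDC windows nor that of SYP held one in the 250 bases searched. Over all 35116 annotated windows of that length, 17.7% held TATANA at any place on either strand. The share with a match this close to the start was not computed.

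The full element TGACGTCA, known to bind CREB, occurred in CHGA alone among these windows, 54 to 47 bases upstream, and in 1.65% of all windows. The core TGACG overlaps it, and was also found in GRP, 88 to 84 bases upstream, and at 2 places in NTS that lie upstream of the stretch shown. It occurred in 21.2% of all windows. The E2F core (TTCCCGC or TTGGCGC, 7.81% of all windows) was, among these windows, found only in SYP. The E-box CAGCTG (13.99% of windows) and the androgen receptor core AGAACA (12.4%) were in none of the 7 member windows. A match describes letters in the window and is not a binding site. The windows also differed in CpG content, with 21 CpG dinucleotides in GRP and in CHGA, 31 in SYP, 2 in NTS, 2 in GCG and 2 and 3 in those of DDC, against a median of 11 over all windows.

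Among the peptide hormone genes, all 3 had higher signal in shRB. GCG encodes proglucagon, the precursor of glucagon and of the glucagon-like peptides. Its intensity was 37.2 and 30.9 in shControl and 86.2, 81.2 and 76.2 in shRB. Every shRB array lay far above both shControl arrays, and the groups did not overlap. Log2 means were 5.08 ± 0.19 (SD, n = 2) and 6.34 ± 0.09 (SD, n = 3), a difference of 1.26 (SE 0.15), or 2.39-fold. In RNA of a whole culture, more cells with the transcript and more transcript per cell cannot be told apart. With 16 taken off the linear values the ratio of means was 3.61, so its size depends on the level taken as background.

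NTS encodes the precursor of neurotensin, a peptide of gut and brain that signals through G protein-coupled receptors. It had intensities of 18.03 and 22.06 in shControl and 30.7, 34.6 and 33.2 in shRB. The groups did not overlap, and both shControl values were near the floor. The log2 difference was 0.72 (SE 0.16), or 1.64-fold as deposited, from 4.32 ± 0.21 (SD, n = 2) to 5.04 ± 0.09 (SD, n = 3). With 16 taken off, the ratio was 4.16, which rests on a few intensity units in shControl.

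GRP encodes gastrin-releasing peptide, the mammalian counterpart of bombesin and a known growth factor of neuroendocrine tumours. The shControl arrays read 20.2 and 19.5, and the shRB arrays 33.7, 29.4 and 27.2. The shRB arrays again lay above both shControl arrays, with the first shRB array the highest. The log2 means of 4.31 ± 0.04 (SD, n = 2) and 4.91 ± 0.16 (SD, n = 3) differed by 0.60 (SE 0.15), or 1.51-fold as deposited. With 16 taken off the ratio was 3.66, which rests, as for NTS, on a few intensity units in shControl.

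DDC encodes aromatic L-amino acid decarboxylase, which makes dopamine from L-DOPA and serotonin from 5-hydroxytryptophan, and which has also been described as a coregulator of the androgen receptor. It was the member farthest above the floor, with intensities of 190 and 177 in shControl and 407, 408 and 395 in shRB. The spread within each group was small beside the distance between them. Log2 means were 7.52 ± 0.07 (SD, n = 2) and 8.66 ± 0.03 (SD, n = 3), a difference of 1.14 (SE 0.14), or 2.20-fold. Taking 16 off changed this little, to 2.31-fold, unlike for the dim peptide genes.

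The granins, which drive granule formation and are the usual serum and tissue markers of neuroendocrine cells, were near the floor in every array. CHGA, chromogranin A, had intensities of 23.0 and 18.2 in shControl and 23.9, 23.2 and 27.1 in shRB. The shRB arrays lay above both shControl arrays, by less than 1 unit for the nearest pair. The log2 difference was 0.27 (SE 0.16, 95% interval -0.08 to 0.63). CHGB, chromogranin B, had 26.6 and 25.0 in shControl and 25.5, 24.8 and 30.0 in shRB, with overlapping groups and a log2 difference of 0.05 (SE 0.15, interval -0.29 to 0.38). SCG2, secretogranin II, had 17.4 and 25.3 against 18.1, 21.9 and 23.2. The shControl arrays enclosed all shRB arrays, and the log2 interval ran from -0.42 to 0.41.

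SYP, synaptophysin, is a membrane protein of small synaptic-like vesicles. The probe set with the higher mean read 21.5 and 30.5 in shControl and 21.1, 23.9 and 19.2 in shRB, a log2 difference of -0.27 (SE 0.18, interval -0.67 to 0.13). The groups overlapped, and the second shControl array stood above the rest. SYP had a second probe set, with intensities of 17.7 and 20.7 in shControl and 19.4, 22.3 and 24.2 in shRB. Its difference was 0.19, so the 2 probe sets of the gene disagreed in sign, both close to the floor.

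**Figure D1:**
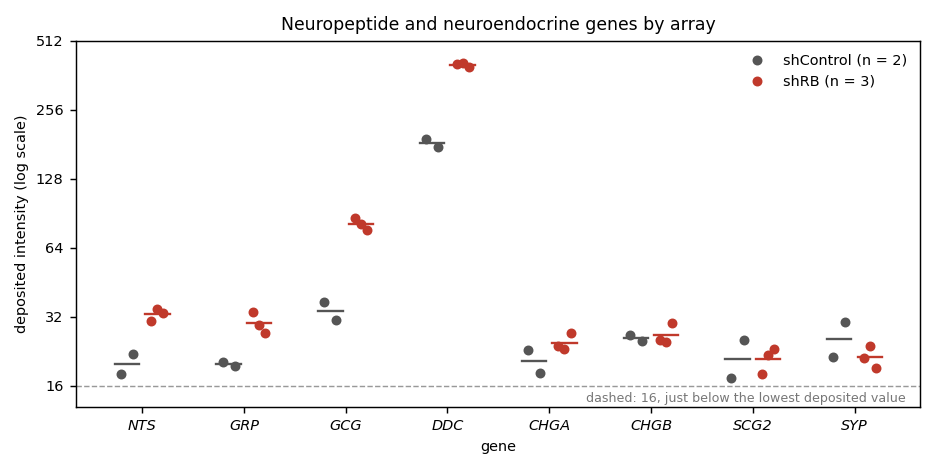
Deposited intensity (log scale) of the 8 genes on each array, with points for single arrays and short bars for group means of the log2 values (2 shControl and 3 shRB arrays). DDC stands apart between groups well above the dashed line at 16. GCG stands apart with its shControl arrays nearer to that line, at 37.2 and 30.9. NTS and GRP stand apart close to the line, and CHGB, SCG2 and SYP overlap.

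Seen together, 6 of the 8 differences were positive and 2 negative, with a median of 0.43, against a median of 0.02 over all genes. Arrays did not overlap and were higher in shRB for 5 genes (NTS, GRP, GCG, DDC and CHGA), as they were for 20.6% of all genes, and were lower for 0 of the 8, against 15.4% of all genes. A difference of at least 2-fold as deposited was seen for GCG and DDC, and for 0.189% of all genes. The fit across all genes (limma, Benjamini-Hochberg, threshold 0.05) called 2 of the 8, GCG and DDC, both higher. It called 1.07% of all genes, 0.695% higher and 0.378% lower. Because the genes were chosen on this contrast, nothing is read from these counts.

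With 16 subtracted and 4 added before the logarithm, the log2 differences became 1.41 for NTS, 1.19 for GRP, 1.66 for GCG and 1.19 for DDC. No member was then called, as 13 genes in all were, 4 higher and 9 lower, where the values as deposited gave 103 higher and 56 lower. GCG was called in each of the 5 fits without 1 array, with differences of 1.12 to 1.39. DDC was not called without shRB replicate 2 (difference 1.13) or shRB replicate 3 (1.15), fits in which the number of called genes fell from 159 to 22 each. NTS was called without shControl replicate 2 (0.86), and also after subtraction of array medians and with an intensity trend and robust variances. For CHGA the difference was 0.10 without shControl replicate 2 and 0.44 without shControl replicate 1. For SCG2 it was 0.27 without shControl replicate 2 and -0.27 without shControl replicate 1, and for SYP -0.01 and -0.52.

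**Figure D2:**
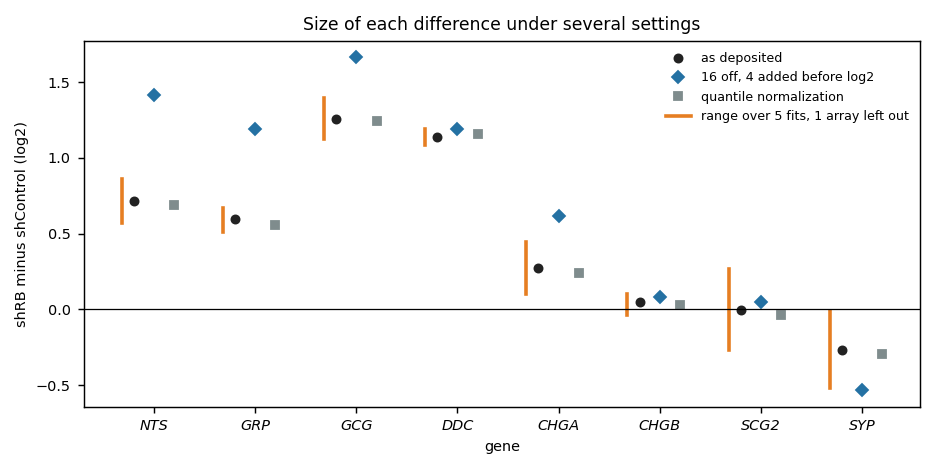
Log2 difference, shRB minus shControl, for each of the 8 genes as deposited (circles), with 16 taken off and 4 added (diamonds) and after quantile normalization (squares), with orange bars for the range over the 5 fits that leave out 1 array. DDC stays between 1.09 and 1.19, NTS reaches 1.41 with 16 taken off, and the bars of CHGB and SCG2 cross 0.

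The rest of the secretory programme was read from 7 lists of related genes, with 180 of 232 listed genes measured. They held 1 gene that rose and 2 that fell in the fit over all genes, and 29 with an unadjusted p under 0.05, which is 16.1% beside 18.1% of all genes. In those lists the adjusted p-values come from limma with Benjamini-Hochberg adjustment over 14812 genes. Several genes named below had log2 values under 5 in all arrays of shControl, of shRB or of both, not far from the floor of 4. Among them are RLN2, TAC3, CADPS, PNMT, GRPR and NMBR. How far such values lie above background cannot be read from these intensities.

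Of 51 other peptide hormone and neuropeptide genes, 0 passed and 12 had an unadjusted p under 0.05 (limma), against 18.1% of all genes. The median difference was 0.01, with 26 positive and 25 negative. RLN2, the relaxin of prostate and reproductive tract, had log2 values of 4.05 and 4.35 in shControl and 5.00, 4.61 and 5.00 in shRB (difference 0.67, adjusted p = 0.095). NPW, neuropeptide W, stood at 0.56 (adjusted p = 0.095) and TAC3, the neurokinin B precursor, at 0.43 (adjusted p = 0.163). In the other direction were CCK, the cholecystokinin precursor, at -0.44 (adjusted p = 0.152), the endothelin gene EDN3 at -0.51 (adjusted p = 0.176) and CRH, corticotropin-releasing hormone, at -0.35 (adjusted p = 0.238).

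Among 18 genes of granins, prohormone processing and granule release, 1 fell and 0 rose, with a median of -0.05. An unadjusted p under 0.05 (limma) was seen for 5 of the 18, against 18.1% of all genes. Without overlap, 5 were lower and 2 higher, against 15.4% and 20.6% of all genes. In the other lists, 8 of the 51 peptide genes were higher and 7 lower, and 2 and 2 of the 13 amine genes. The same counts were 4 and 3 of the 29 synaptic and neuronal markers and 5 and 5 of the 32 lineage factors. They were 3 and 6 of the 22 receptors and 2 and 4 of the 15 degrading enzymes. CADPS2, a protein that primes dense-core granules for exocytosis, had log2 values of 6.41 and 5.87 in shControl and 5.19, 4.71 and 5.06 in shRB. No arrays overlapped, and the difference was -1.15 (SE 0.20, adjusted p = 0.0239), 2.22-fold lower as deposited. Its paralog CADPS was at -0.50 (adjusted p = 0.15) and the convertase PCSK6 at -0.54 (adjusted p = 0.131). NUCB2, the nesfatin precursor, was at 0.48 (adjusted p = 0.151) and PAM, the enzyme that amidates peptides such as GRP, at 0.25 (adjusted p = 0.429). FURIN differed by 0.20 (adjusted p = 0.696).

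Of 13 measured genes of amine synthesis, storage and breakdown, 1 fell and 0 rose, with a median of -0.04. An unadjusted p under 0.05 (limma) was seen for 2 of the 13. PNMT, which turns noradrenaline into adrenaline downstream of DDC, had log2 values of 5.53 and 5.44 in shControl and 4.64, 4.76 and 4.81 in shRB. The groups lay apart, by -0.75 (SE 0.15, adjusted p = 0.0398), 1.68-fold lower. TH, the tyrosine hydroxylase that supplies L-DOPA, had means of 4.91 in shControl and 5.06 in shRB, a difference of 0.15 (adjusted p = 0.647). PTS, which makes the cofactor of that hydroxylase, differed by 0.34 (adjusted p = 0.264) and PCBD1, which regenerates it, by 0.16 (adjusted p = 0.593). TPH2 and CHAT each stood at -0.22 (adjusted p = 0.465 and 0.526).

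Of 29 synaptic vesicle and neuronal markers, 1 rose and 0 fell, with a median of 0.02. An unadjusted p under 0.05 (limma) was seen for 3 of the 29. MAP2, a microtubule-associated protein of dendrites, had log2 values of 6.82 and 6.90 in shControl and 7.74, 7.71 and 7.67 in shRB. Its groups lay apart by 0.84 (SE 0.14, adjusted p = 0.0205), or 1.80-fold. The adhesion molecule L1CAM was at 0.50 (adjusted p = 0.197), the vesicle protein SYNGR3, of the synaptophysin superfamily, at 0.31 (adjusted p = 0.313) and the synapsin SYN1 at -0.42 (adjusted p = 0.382). SYT4, a synaptotagmin of dense-core granules, was bright in both groups, with log2 means of 10.79 and 10.41 (difference -0.38, adjusted p = 0.207), and SYT7 was at -0.30 (adjusted p = 0.363).

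CADPS2, PNMT and MAP2 were each called in 0 of the 3 fits that leave out 1 shRB array, where adjusted p-values reached 0.196, 0.198 and 0.142. PNMT also missed the threshold without shControl replicate 1 (adjusted p = 0.0533) and with array weights (adjusted p = 0.0655). With 16 subtracted and 4 added, limma gave adjusted p-values of 0.137, 0.115 and 0.129, so none of the 3 was called.

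Among 32 neuroendocrine lineage factors, 0 passed by limma and 2 had an unadjusted p under 0.05, with a median of -0.08. The 2 were the neuronal POU factors POU4F1 (-0.59, adjusted p = 0.0757) and POU3F3 (-0.48, adjusted p = 0.139). ISL1, a LIM homeobox factor of endocrine and neural cells, was at 0.34 (adjusted p = 0.283), HES6 at 0.35 (adjusted p = 0.324), ONECUT2 at 0.28 (adjusted p = 0.355) and ONECUT1 at -0.33 (adjusted p = 0.3).

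The receptors of these peptides and their relatives gave 0 calls among 22 measured genes, with 3 at an unadjusted p under 0.05 and a median of -0.13. Those 3 all had negative differences. GLP1R, the receptor of the glucagon-like peptide that proglucagon yields, had log2 values of 5.98 and 6.12 in shControl and 5.40, 5.43 and 5.38 in shRB. All shRB arrays lay below both shControl arrays, a difference of -0.64 (SE 0.14, adjusted p = 0.0638). GRPR, the receptor of gastrin-releasing peptide, had 5.20 and 5.12 against 4.87, 4.72 and 4.76 (-0.37, adjusted p = 0.209). NMBR, the receptor of the related neuromedin B, was also at -0.37 (adjusted p = 0.252). The largest positive differences by p were those of DRD4 (0.32, adjusted p = 0.313), GHRHR (0.31, adjusted p = 0.363) and VIPR1 (0.22, adjusted p = 0.546).

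Enzymes that degrade such peptides gave 0 calls among 15 genes (limma), with 2 at an unadjusted p under 0.05 and a median of -0.11. DPP4, which inactivates glucagon-like peptides, had log2 values of 6.55 and 6.08 in shControl and 6.98, 6.82 and 6.93 in shRB (0.59, adjusted p = 0.112). ANPEP, aminopeptidase N, was at -0.39 (adjusted p = 0.222), and NLN, the neurotensin-cleaving neurolysin, at -0.30 (adjusted p = 0.406).

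**Figure D3:**
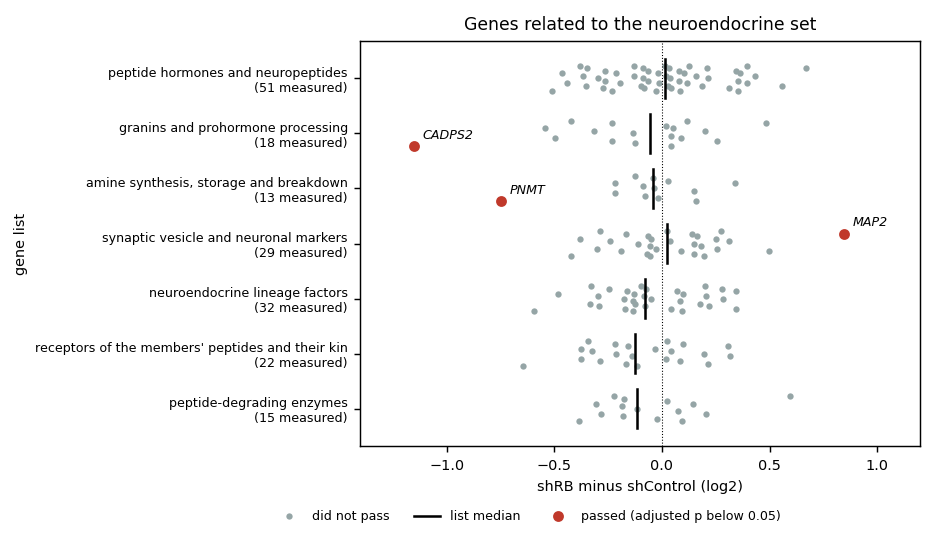
Log2 difference, shRB minus shControl, of each measured gene in 7 related lists (180 genes), with a vertical bar for the list median and red points for genes past the threshold. The points spread on both sides of 0 in each list, and the 3 red points are CADPS2, PNMT and MAP2.

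The positions of the genes were compared with those of their neighbours, a step chosen after values had been seen. GCG lies on chromosome 2 next to DPP4, and FAP, which is not analysed here, separates it from IFIH1. DPP4 differed by 0.59 and IFIH1, a sensor of viral RNA, by 0.53 (adjusted p = 0.112 and 0.108), and in both the shRB arrays lay above the shControl arrays. Only these 2 of the 6 protein-coding genes within 3 places of GCG had a value. Around DDC on chromosome 7 all 6 neighbours had values, from -0.32 (POM121L12) to 0.35 (FIGNL1, adjacent to DDC), and 0 of them passed (limma), 1 at an unadjusted p under 0.05 (FIGNL1), with 1 higher and 2 lower without overlap. Around NTS on chromosome 12, the 4 measured neighbours ran from -0.07 (LRRIQ1) to 0.52 (RLIG1, adjusted p = 0.136, limma). The adjacent RASSF9 was at 0.33 (adjusted p = 0.285). Of these 4, 2 (RASSF9 and RLIG1) were higher and 0 lower without overlap. Around GRP on chromosome 18, 5 neighbours ran from -0.27 (MALT1) to 0.21 (ZNF532), with 1 higher and 1 lower without overlap. The 6 measured neighbours of CHGA included 0 higher and 2 lower without overlap, and the 5 of CHGB 1 higher and 0 lower. Those of SCG2 (3 measured) included 0 higher and 1 lower, and those of SYP (3 measured) 0 higher and 0 lower. Over all genes, 20.6% were higher and 15.4% lower without overlap.

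**Figure D4:**
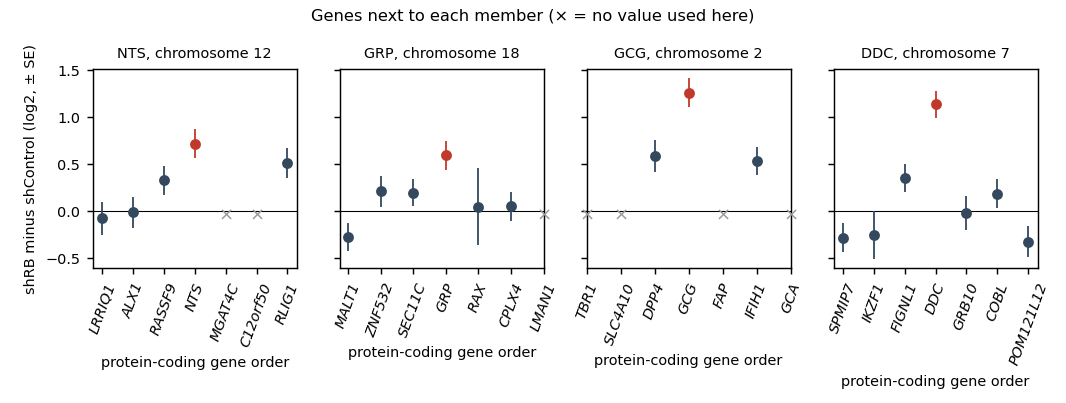
Log2 difference with its standard error for NTS, GRP, GCG and DDC (red) and for up to 3 protein-coding genes on each side (blue), in the order of the RefSeq annotation, with crosses for genes without a value here. The 2 measured neighbours of GCG stand at 0.59 and 0.53, below GCG at 1.26, while the neighbours of DDC lie on both sides of 0.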

How the data were processed

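RNA of 5 single-colour arrays was compared, 2 of shControl and 3 of shRB, grouped by the sample labels. The authors deposited probe set intensities on a linear scale. Software, background correction, normalization and build are, in the sources used here, not given. Of 44607 probe sets, 15835 named 1 gene in the platform annotation, 0 several and 28772 none. Symbols were updated through Entrez identifiers (all 15835 matched) to RefSeq, GRCh38.p14, and of several probe sets the one with the highest mean log2 value stood for a gene, leaving 14812 genes with no filter. Log2 intensities entered limma (version 3.58.1, R 4.3.3) with lmFit and eBayes and the group as the only term. Tests were two-sided, adjusted by Benjamini-Hochberg across all genes, with a threshold of 0.05. The fit was tested on simulated data. SE and 95% intervals are from that fit. Precision is limited by the number of arrays.

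The members and the related lists were chosen with earlier results of these data known. Genes named are the members, RB1, KLK3 and, of the other luminal markers, KLK4, KRT8 and FOLH1. From each related list, up to 3 positive and 3 negative genes by smallest p are named. The 3 genes nearest in pattern to each peptide gene are named too. Any marker of another cell type with a mean log2 above 8 was to be named, and there was none. Neighbouring genes were added after values were seen. Promoter windows hold 250 bases before each annotated start, and the 50 bases after it were left out. Alternatives were quantile normalization, array medians, removal of the constant of 16 with 4 added, leaving out dim genes, averaging probe sets, weighting arrays, a variance trend on intensity with robust fitting, a block for the replicate number, and leaving out each array.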

Additional observations from a re-analysis of the deposited data

How the results depend on the processing

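The count of called genes, 159 in all, moved by over 1.5 times in several settings, and the cause was not tested. It was 13 with 16 subtracted and 4 added, 385 of 7406 genes with genes below the median left out, 426 with an intensity trend and robust variances, 88 with array weights and 22 to 411 without 1 array. Among the members, 2 were called with the deposited values, 0 with 16 subtracted and 1 to 3 without 1 array. With genes below the median left out, 6 members had no value and DDC and GCG were called. Among the related genes, 3 were called with the deposited values, 0 with 16 subtracted, 5 with dim genes left out and 0 to 6 without 1 array. Without 1 shControl array the lone array was assumed to vary like the others. The differences of NTS, GRP, GCG, DDC and CHGA were positive and that of SYP negative in every setting that gave them a value, whereas those of CHGB and SCG2 took both signs. The sign of SYP rests mostly on 1 probe set. Its other probe set differed by 0.19, and the mean of its probe sets by -0.04. The median of all genes lay between 0.00 and 0.05 in every setting.

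The replicate numbers share no stated culture or day. Deviations of same-numbered arrays correlated at -0.02 and 0.05, so no pairing was seen in these values. With so few arrays the deviations within shControl mirror each other, so the correlations are not independent. They cannot settle whether same-numbered arrays shared a culture or day. With the replicate block the fit, in which shRB replicate 3 adds no information on the difference, called 24 genes, 1 member (GCG) and 1 related gene (CADPS2). How far the dim genes lie above background cannot be read from these intensities.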

Other observations

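Patterns over the 5 arrays were compared by the root mean square distance of log2 values centred on each gene, as a description with no test. The gene nearest to GCG was DDC, at a distance of 0.09, followed by RALYL (0.11) and ARHGAP25 (0.13), and 21 genes lay within 0.2 of GCG. RALYL differed by 1.42 between groups and ARHGAP25 by 1.09. Nearest to NTS were SLC66A1 (0.05), the pseudogene UBE2NL (0.05) and RSKR (0.05), with 710 genes within 0.2. Nearest to GRP were TBC1D32 (0.03), AGFG2 (0.04) and MIPEP (0.05), with 1391 genes within 0.2. At this distance NTS and GRP thus had many more genes near them than GCG, and all patterns were dominated by the same 2 groups of arrays. The values were centred but not scaled, so the distance depends on the size of the difference between groups. The members were chosen on that difference, and only 0.189% of all genes were at least 2-fold higher in shRB. Nothing is therefore read from these counts.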
